A study of Mus musculus with 8 samples.

Results

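Snap25, Napb and Cplx2 encode neuronal proteins of SNARE-driven vesicle fusion, and they held 32 of the 2055 sites in the authors' deposited comparison of C-to-U conversion between aged and young cortex cells. The members were all sites that the table assigns to these 3 gene names, which gave 27 sites in Snap25, 3 in Napb and 2 in Cplx2. Averaged over all cells, C-to-U was lower in aged than in young cells at 28 of the 32 sites. In Snap25 it was lower at 25 of 27, in Napb at 2 of 3 and in Cplx2 at 1 of 2, beside 58.5% of all listed sites.

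The aged cells came from the cortex of APOBEC1-YTH mice aged 12 to 14 months when treatment began, given 20 mg/kg tamoxifen for 5 days at intervals of 24 h, with tissue taken 7 days after the last dose. The young cells came from a companion series and entered through the authors' table alone. Their age, genotype, treatment and library kit were not given in the sources used here. A difference between aged and young cells therefore cannot be told apart from a difference between the series. APOBEC1-YTH is a cytidine deaminase joined to the YTH domain, which binds N6-methyladenosine (m6A). It deaminates a C that follows the methylated A, and the C is then read as U, which marks m6A in the reads of a cell. Per the labels the 8 libraries were 4 lanes of each of 2 sublibraries of dissociated, fixed cells, while the series' design text describes NeuN-sorted nuclei. The promoter that drives the fusion, its cell type and the number of mice were not given in the sources used here, and the table holds no expression values with which to check the cell type.

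At each site 3 linked quantities per age were used, the share and the mean from the table and the within-cell level computed from them. The share is the percent of all cells with C-to-U at the site, over 846 aged and 2623 young cells. Cells with C-to-U at a site are called methylated, after the deposited headers. At a site whose C does not follow an A the word stands for C-to-U alone and does not establish m6A. The within-cell level is the mean C-to-U of those methylated cells. The deposited mean C-to-U was read as one over all cells, with unmethylated cells counted as 0. It is then the product of share and within-cell level. There is 1 value per age and none per library or mouse, so no value has a replicate error. Shares carry exact Clopper-Pearson 95% intervals, which cover counting error only. The table gives no reads per site, so a cell without reads cannot be told from an unmethylated cell, and the read depth is unknown. The adjusted p-values are those of the authors' deposited table, whose test is not given. For mean C-to-U, no listed site had a log2 ratio (aged over young) smaller than 0.58 in either direction, or fewer than 25 methylated cells over both ages. Every listed site also had an adjusted p under 0.05, so a member's adjusted p under that limit follows from its listing. Among the members the smallest absolute log2 ratio was 0.67 and the fewest methylated cells were 28.

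SNARE proteins pull a vesicle and the plasma membrane together by zipping into a helical bundle. SNAP-25, the product of Snap25, is the plasma membrane partner that joins syntaxin-1 and the vesicle protein synaptobrevin (Vamp2) in that bundle. Complexin-2 (Cplx2) binds the assembled bundle and controls calcium-triggered release. β-SNAP (Napb), a neuronal adaptor unrelated to SNAP-25 in spite of its name, recruits the ATPase NSF, which takes spent bundles apart for reuse. In many mRNAs m6A is concentrated around the stop codon and in the 3′ UTR, where readers act on mRNA stability and translation.

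The sequences of the sites on which the results turn are printed 5′ to 3′ on the transcript's strand, as DNA from GENCODE M21 transcripts (GRCm38, the mm10 build), with every listed edited C in capitals. The Snap25 sites in the 3′ UTR were chosen for the largest differences without overlapping windows, with the site that does not follow an A and the last listed site added. The chosen site is the C at base 11 of the 21 in each of these 5 windows, and a second capital C is a neighbouring listed site.
Snap25 3′ UTR, chr2:136781677-136781697 (+): tgtgaaattaCataaCaggca
Snap25 3′ UTR, no A before the chosen C, chr2:136781722-136781742 (+): tgcatttatgCatgagaaCta
Snap25 3′ UTR, chr2:136781753-136781773 (+): tagattcctaCttaaaCaaaa
Snap25 3′ UTR, chr2:136781827-136781847 (+): aaagcaacaaCtacgcatgct
Snap25 3′ UTR, last listed, chr2:136781917-136781937 (+): aacctacagaCttactgatta
The Snap25 sites before the stop codon shown here are those with a higher mean in aged cells, the site in the alternative exon and the site in a retained intron.
Snap25 coding, exon 6, chr2:136773973-136773993 (+): ggtggatgaaCgggagcagat
Snap25 coding, exon 8, 2 edited C, chr2:136781076-136781096 (+): ctgattcCaaCaaaaccagaa
Snap25 coding, alternative exon 5, chr2:136770104-136770124 (+): atgaaagaagCagaaaagaat
Snap25 retained intron, chr2:136761658-136761678 (+): tgaaattgtaCaaaagaaaga
All 5 sites of the other genes are shown.
Napb 3′ UTR, proximal, chr2:148696766-148696786 (-): ttttaacttaCacacacacac
Napb 3′ UTR, distal, higher in aged cells, chr2:148694748-148694768 (-): aaaaaaaggaCtgaaaggctg
Napb 3′ UTR, distal, lower in aged cells, chr2:148694678-148694698 (-): gcaagaggaaCgtgattccag
Cplx2 coding, chr13:54378919-54378939 (+): gagcgcaaggCgaaacacgcc
Cplx2 3′ UTR, chr13:54379732-54379752 (+): cacgttatgaCtttttttttt

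The edited base was C on the transcript's strand at all 32 sites. It followed an A at 24 of them (75.0%), beside 74.4% of all listed sites with a readable base. Neighbouring sites can share reads and cells, so this percent carries no interval. With sites within 50 bases of each other reduced to 1, the C followed an A at 8 of 14. At 18 of the 32 sites (56.25%) the C closed the triplet AAC or GAC, beside 69.6% of all listed sites with a readable base. In Snap25 the C followed an A at 16 of 17 sites in the 3′ UTR, beside 80.7% of all listed 3′ UTR sites. It did so at 4 of the 10 other Snap25 sites, beside 71.5% at sites of other genes outside the 3′ UTR. The exon 6 site reads GAAC, and the exception in the 3′ UTR reads TATGC.

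Snap25 (ENSMUSG00000027273.13, chromosome 2, positions 136713453 to 136782428, plus strand) had its sites in a stretch of the 3′ UTR and at scattered places before the stop codon. On the transcript Snap25-201, which has 8 exons and 206 codons, 2 sites lay in the 5′ UTR and 7 in coding sequence. The last exon held 17 sites in the 3′ UTR, all between 544 and 784 bases after the stop codon. The remaining site, at position 136761668, lay in an intron of that transcript that the noncoding transcript Snap25-203 retains. The shorter coding transcript Snap25-202 ends 208 bases after its stop codon, so it lacks the whole stretch with sites in the 3′ UTR.

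**Figure D1:**
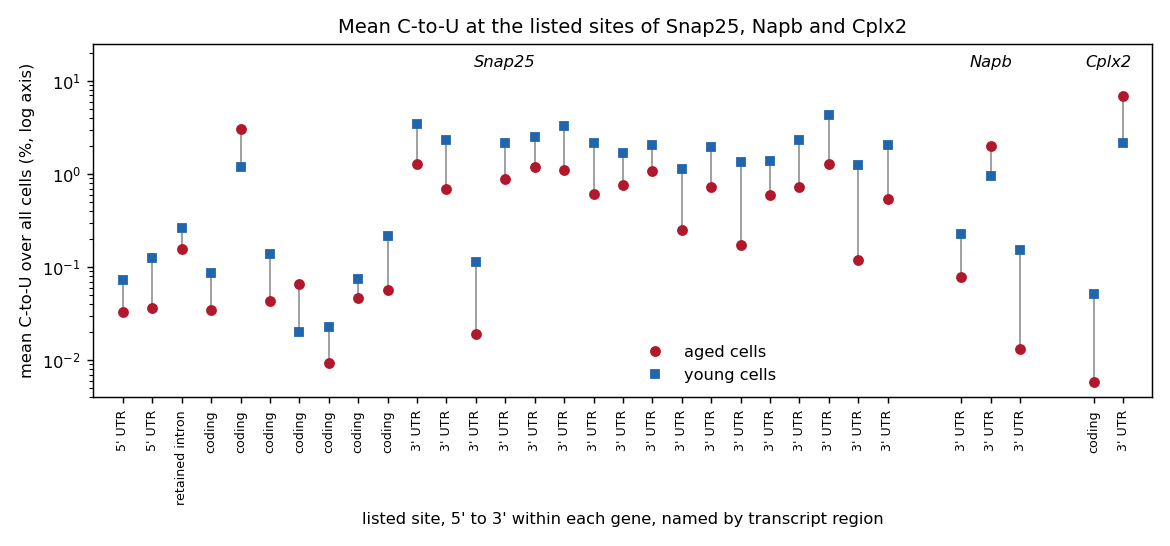
Mean C-to-U over all cells (percent, log axis) in aged (circles) and young (squares) cells at each of the 32 listed sites, in transcript order within each gene, with no error bars because there is 1 value per age. Aged circles lie below young squares at 28 sites, and the 4 exceptions are 2 coding sites of Snap25, a 3′ UTR site of Napb and the 3′ UTR site of Cplx2.

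In the Snap25 3′ UTR, mean C-to-U was lower in aged cells at 17 of 17 sites, beside 75.9% of all listed 3′ UTR sites. It ran from 0.0189% to 1.30% in aged cells, against 0.112% to 4.27% in young cells. The median log2 ratio over these sites was -1.68, beside -1.50 over 672 sites in the 3′ UTRs of other genes. The median of the mean ratio thus lay close to that of other 3′ UTRs, and the 2 factors behind it lay farther from theirs.

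A lower share of aged cells was methylated at 16 of the 17 Snap25 sites in the 3′ UTR, beside 50.8% of all listed 3′ UTR sites. Those 16 were the sites whose C followed an A, and at each of them the intervals of the shares of the 2 ages lay apart. Of all listed sites, 15.1% had intervals apart with a lower aged share. Each of the 16 had 2 to 23 methylated aged cells, so it reached 25 methylated cells only through its young cells. Intervals that lie apart at sites listed in this way are no independent support for a difference. Over the 16 sites the share ran from 0.236% to 2.72% in aged cells, against 5.60% to 19.7% in young cells. The young share was thus 4.84 to 23.7 times the aged share, with a median of 6.61 times. Over all 17 sites the median log2 ratio of the share (aged over young) was -2.72, while over the 3′ UTR sites of other genes it was 0.01.

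The within-cell level was higher in aged cells at the same 16 sites, beside 36.8% of all listed 3′ UTR sites. It ran from 16.4% to 56.4% in aged cells, against 12.8% to 24.4% in young cells, a ratio of 1.28 to 3.25 with a median of 2.20. Over all 17 sites the median log2 ratio of the within-cell level was 1.13, beside -0.72 over the 3′ UTR sites of other genes, and these differences from other genes were not tested. The combination of a lower share and a higher within-cell level was found at 16 of 17 sites here, beside 21.4% of all listed 3′ UTR sites and 9.77% of all listed sites with a methylated aged cell. The aged within-cell levels rest on 2 to 23 cells a site, against 147 to 517 young cells.

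The site with the largest difference lay 694 bases after the stop codon, at position 136781837. Its mean level was 1.30% in aged cells, against 4.27% in young cells, with a log2 ratio of -1.72 and an adjusted p of 0.000152 per the authors' deposited table. Methylated cells were 21 aged cells, 2.48% (1.54 to 3.77), against 462 young cells, 17.6% (16.2 to 19.1). These intervals lie apart, but they cover counting error only and not the spread between mice. A cell without reads at the site also cannot be told from an unmethylated cell. Within methylated cells C-to-U was 52.2% in aged cells, against 24.2% in young cells.

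The first listed site of the 3′ UTR, at position 136781687, was the second of the gene in size of difference and had the same form. Its mean was 1.29% in aged cells, against 3.49% in young cells, with shares of 2.60% (1.64 to 3.91) in aged cells, against 14.3% (13.0 to 15.7) in young cells. Its log2 ratio was -1.44 and the authors' deposited table gave an adjusted p of 0.00803. At position 136781692, 549 bases after the stop codon, the mean was 0.694% in aged cells, against 2.31% in young cells, on 13 aged and 278 young methylated cells.

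The site at position 136781763, 620 bases after the stop codon, had the largest young share of the stretch. It was methylated in 23 aged cells, 2.72% (1.73 to 4.05), against 517 young cells, 19.7% (18.2 to 21.3). Its mean was 1.11% in aged cells, against 3.28% in young cells, and its adjusted p of 2.66e-08 per the authors' deposited table was the smallest among the sites in the 3′ UTR. At position 136781826 the mean was 0.723% in aged cells, against 2.31% in young cells, with an adjusted p of 0.015 per the authors' deposited table. Its shares were 2.13% (1.27 to 3.34) in aged cells, against 12.2% (11.0 to 13.6) in young cells, so at both sites the intervals of the ages lay apart.

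The lowest aged share was 746 bases after the stop codon, at position 136781889. There 2 aged cells were methylated, 0.236% (0.0286 to 0.851), against 147 young cells, 5.60% (4.75 to 6.55). Its log2 ratio of mean C-to-U was -3.39, the lowest of the gene, and it rests on those 2 aged cells. The last listed site, 784 bases after the stop codon, had 8 methylated aged cells and 247 methylated young cells.

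The site without an A before its C, at position 136781732, differed in form from its neighbours. It was methylated in 18 aged cells, 2.13% (1.27 to 3.34), against 48 young cells, 1.83% (1.35 to 2.42), and these intervals overlap. Within methylated cells C-to-U was 0.891% in aged cells, against 6.15% in young cells. Its mean of 0.0189% in aged cells, against 0.112% in young cells, was the lowest of the stretch at both ages.

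**Figure D2:**
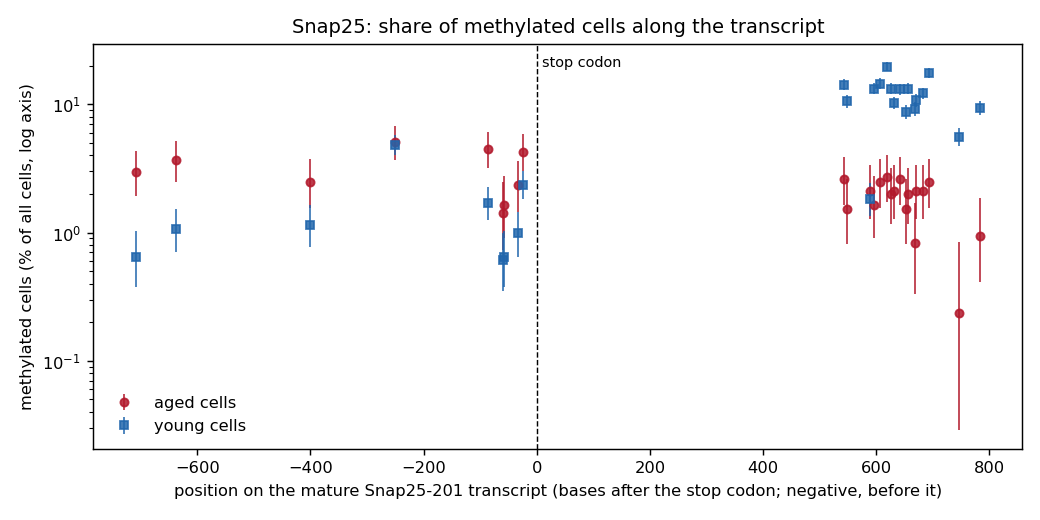
Share of methylated cells (percent of 846 aged or 2623 young cells, log axis) at the 26 Snap25 sites on the mature transcript Snap25-201, by distance from the stop codon in bases, with Clopper-Pearson 95% intervals. Aged circles lie above young squares before the stop codon and, except at 1 site, below them from 544 to 784 bases after it.

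The stretch with sites in the 3′ UTR was described by its cytosines. It spans 241 bases with 55 C, of which 28 follow an A, and 16 of those 28 (57.1%) were listed, while 1 of the 27 other C was. The 543 bases of 3′ UTR before the stretch hold 42 C after an A and the 501 bases after it hold 31, and none of these was listed. An unlisted C says that it did not enter the table, not that it was unedited. Neighbouring listed sites were 3 to 52 bases apart, with a median of 10, so that many can lie on the same reads and come from the same cells. The order of the sites was alike at both ages, with a Spearman rho of 0.68 for the share and 0.81 for the within-cell level across the 17 sites, a description over sites that share reads, cells and libraries.

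Outside the 3′ UTR, a higher share of aged cells was methylated at 10 of 10 Snap25 sites, beside 88.9% of all listed sites outside 3′ UTRs. The intervals of the 2 ages lay apart at 5 of the 10, beside 47.4% of all listed sites with intervals apart and a higher aged share. The share ran from 1.42% to 6.03% in aged cells, against 0.610% to 4.84% in young cells, with a median log2 ratio of 1.30, beside 1.53 at such sites of other genes. Within methylated cells C-to-U was lower in aged cells at 8 of the 10, beside 70.6%, with a median log2 ratio of -2.70, beside -0.89 at such sites of other genes. Mean C-to-U was lower at the same 8 sites, beside 49.6%, and higher at 2. A lower mean thus came with a higher share at these 8 sites and with a lower share at 16 of 17 sites in the 3′ UTR.

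The 5′ UTR sites lay in exons 1 and 2. At position 136713574 methylated cells were 2.96% (1.92 to 4.33) of aged cells, against 0.648% (0.378 to 1.04) of young cells, and C-to-U within them was 1.13% in aged cells, against 11.1% in young cells. At position 136756112 methylated cells were 3.66% (2.50 to 5.16) of aged cells, against 1.07% (0.710 to 1.54) of young cells, and within them it was 0.986% in aged cells, against 11.7% in young cells. At both sites a higher share of aged cells carried C-to-U, at a level near 1% averaged over the methylated aged cells.

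The retained intron site had the smallest adjusted p of the gene, 5.63e-26 in the authors' deposited table. It was methylated in 51 aged cells, 6.03% (4.52 to 7.85), against 33 young cells, 1.26% (0.868 to 1.76), so the aged share was 4.79 times the young share. Its mean level was 0.158% in aged cells, against 0.263% in young cells, since the level within those cells was 2.62% in aged cells, against 20.9% in young cells. The direction of this site therefore depends on whether cells or mean conversion are counted.

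Coding sites lay in exons 5 to 8. The exon 5 site, at codon 74, sits in the exon copy used by Snap25-201 and not in the copy used by Snap25-202. These copies are mutually exclusive exons, and the one of Snap25-201 gives the SNAP-25b form that prevails in the adult brain. Methylated cells there were 2.48% (1.54 to 3.77) of aged cells, against 1.14% (0.773 to 1.63) of young cells, and the intervals overlap. Its mean was 0.0348% in aged cells, against 0.0875% in young cells. No listed site lay in the other copy, so the isoforms cannot be compared.

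The exon 6 site, at codon 124 (position 136773983), was the coding site with the largest difference and had a higher mean in aged cells. Its mean level was 3.09% in aged cells, against 1.18% in young cells, with a log2 ratio of 1.39 and an adjusted p of 0.000311 per the authors' deposited table. Methylated cells were 43 aged cells, 5.08% (3.70 to 6.79), against 127 young cells, 4.84% (4.05 to 5.73). The shares thus overlapped within counting error. Within methylated cells C-to-U was 60.7% in aged cells, against 24.4% in young cells, and it was the highest aged level of the gene.

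The exon 7 site, at codon 178, was methylated in 4.49% (3.20 to 6.11) of aged cells, against 1.72% (1.25 to 2.29) of young cells. Its mean was 0.0432% in aged cells, against 0.138% in young cells. The 4 coding sites of exon 8 lay at codons 187, 188, 196 and 199, near the C terminus that botulinum neurotoxin A cuts. Their shares were 1.42% to 4.26% in aged cells, against 0.610% to 2.36% in young cells, and their within-cell levels were 0.568% to 4.68% in aged cells, against 3.29% to 9.16% in young cells. All 4 sites had a within-cell level under 5% in aged cells.

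Codons 187 and 188 hold edited C 3 bases apart that went in opposite directions. The C of codon 187 (position 136781083), which follows a C, had a mean of 0.0664% in aged cells, against 0.0200% in young cells, on 12 aged and 16 young methylated cells. The C of codon 188 (position 136781086), which follows an A, had a mean of 0.0094% in aged cells, against 0.0227% in young cells, on 14 aged and 17 young methylated cells. The share intervals of the 2 ages overlap at both. In the authors' deposited table, codon 187 had an adjusted p of 0.00846 and codon 188 of 0.0016.

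**Figure D3:**
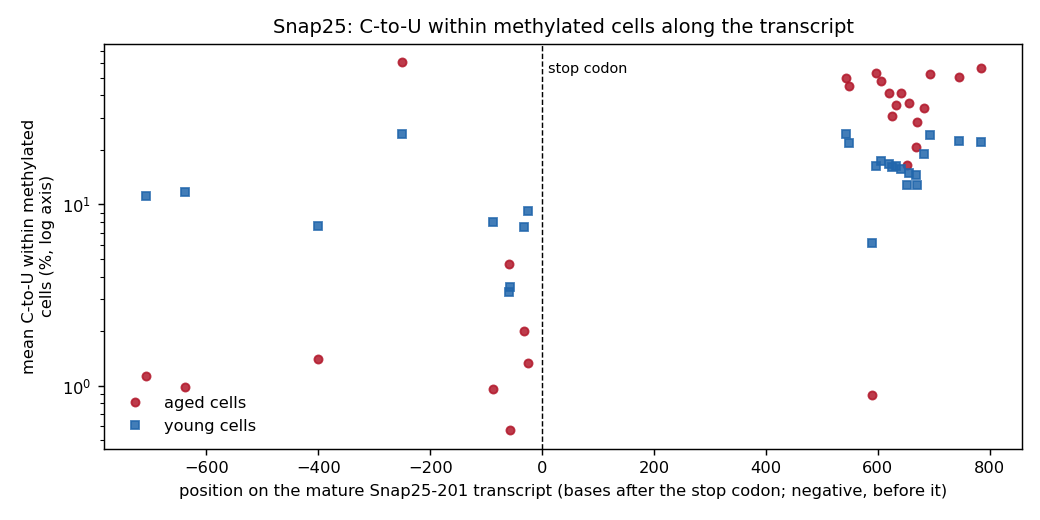
Mean C-to-U within methylated cells (percent, log axis) at the 26 Snap25 sites on the mature transcript Snap25-201, by distance from the stop codon in bases, without error bars because there is 1 value per age. Aged circles lie above young squares at 16 of 17 sites in the 3′ UTR, and before the stop codon they lie above them at the sites of codons 124 and 187 alone.

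Napb (ENSMUSG00000027438.14, chromosome 2, positions 148693985 to 148732467, minus strand) had 3 sites, all in the 3′ UTR in the last of its 11 exons, each with its C after an A. The proximal site, 620 bases after the stop codon (position 148696776), had a mean of 0.0782% in aged cells, against 0.227% in young cells, with a log2 ratio of -1.53 and an adjusted p of 1.36e-07 per the authors' deposited table. Methylated cells were 20 aged cells, 2.36% (1.45 to 3.63), against 40 young cells, 1.52% (1.09 to 2.07), with 3.31% C-to-U within them in aged cells, against 14.9% in young cells. The lower mean thus came with a lower within-cell level, while the aged share was higher with overlapping intervals.

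The distal Napb sites, 70 bases apart, went in opposite directions. At 2638 bases after the stop codon (position 148694758) the mean was 2.01% in aged cells, against 0.959% in young cells, with a log2 ratio of 1.07 and an adjusted p of 1.32e-24 per the authors' deposited table. Methylated cells were 70 aged cells, 8.27% (6.51 to 10.3), against 169 young cells, 6.44% (5.53 to 7.45), and these intervals overlap. Within them C-to-U was 24.3% in aged cells, against 14.9% in young cells.

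At 2708 bases after the stop codon (position 148694688) the Napb mean was 0.0133% in aged cells, against 0.154% in young cells, a log2 ratio of -3.54 that was the lowest of the 32 sites. Methylated cells were 15 aged cells, 1.77% (0.996 to 2.91), against 53 young cells, 2.02% (1.52 to 2.63). Within them C-to-U was 0.749% in aged cells, against 7.64% in young cells. In Napb the share intervals of the 2 ages overlapped at all 3 sites, and the direction of the mean was that of the within-cell level.

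Cplx2 (ENSMUSG00000025867.8, chromosome 13, positions 54371349 to 54383917, plus strand) had 1 coding and 1 3′ UTR site, which went in opposite directions. The 3′ UTR site, 33 bases after the stop codon in exon 4 of 4 (position 54379742), had the largest difference of the 32 sites. Its mean level was 6.85% in aged cells, against 2.15% in young cells, with a log2 ratio of 1.67 and an adjusted p of 1.05e-08 per the authors' deposited table. Methylated cells were 111 aged cells, 13.1% (10.9 to 15.6), against 128 young cells, 4.88% (4.09 to 5.78). The share was thus higher in aged cells, and the intervals, which cover counting error only, lie apart. Within methylated cells C-to-U was 52.2% in aged cells, against 44.1% in young cells. The edited C closes GAC and is followed by a run of T.

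The Cplx2 coding site, in codon 50 in exon 3 (position 54378929), had a C after a G. Its mean was 0.00579% in aged cells, against 0.0518% in young cells, with a log2 ratio of -3.16 and an adjusted p of 0.0133 per the authors' deposited table. Methylated cells were 12 aged cells, 1.42% (0.735 to 2.46), against 17 young cells, 0.648% (0.378 to 1.04), which overlap, and within them C-to-U was 0.408% in aged cells, against 7.99% in young cells.

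**Figure D4:**
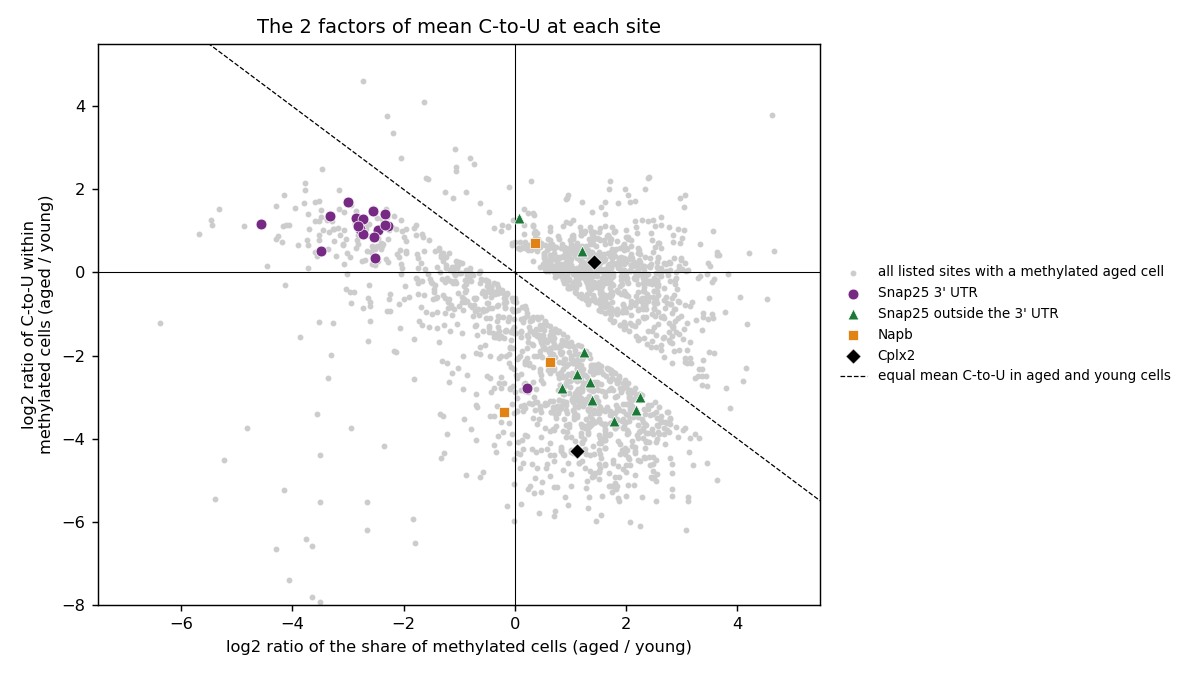
Log2 ratio of the share of methylated cells (x axis) and of C-to-U within methylated cells (y axis), aged over young, at the sites of Snap25 (circles in the 3′ UTR, triangles elsewhere), Napb (squares) and Cplx2 (diamonds), over the 2036 listed sites with a methylated aged cell (grey). Points under the dashed line have a lower mean in aged cells, and the 16 Snap25 sites in the 3′ UTR with a C after an A lie together at a lower share and a higher within-cell level.

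Across the 3 genes, the share intervals of the 2 ages lay apart at 22 of 32 sites. At 16 of these the aged share was lower, all in the Snap25 3′ UTR, beside 15.1% of all listed sites. At 6 it was higher, 5 in Snap25 outside the 3′ UTR and 1 in Cplx2, beside 47.4% of all listed sites. The within-cell level was under 5% in aged cells at 13 sites, beside 45.3% of all listed sites with a methylated aged cell, and in young cells at 2, beside 16.0% of all listed sites. All 8 sites whose C did not follow an A were among those 13, and the rest of the 13 had a C after an A. Whether these traits go together over all listed sites was not tested.

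Other genes of vesicle fusion were taken from a list of 48 covering SNAREs, their disassembly, priming, calcium sensing and vesicle proteins, of which 13 had a listed site. Each gene was read at its site of largest difference in mean C-to-U, and 2 of the 13 were lower and 11 higher in aged cells, beside 44.2% of all listed genes lower. By the same rule Snap25 was lower, and Napb and Cplx2 were higher. Of the 40 sites of the 13 genes, 21 had a lower mean and 33 a higher share in aged cells. Of all listed sites, 58.5% had a lower mean and 75.4% a higher share.

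Vamp2, the vesicle SNARE that pairs with SNAP-25, had 3 sites in its 3′ UTR, of which 1 had a lower mean and all 3 a higher share in aged cells. Of all listed 3′ UTR sites, 75.9% had a lower mean and 49.2% a higher share. The largest difference of Vamp2 was a mean of 0.654% in aged cells, against 0.383% in young cells. It rests on 14 aged and 39 young methylated cells, with overlapping share intervals. Vamp2 thus did not have the lower shares of the Snap25 3′ UTR, and the difference between the genes was not tested.

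Syt1, the calcium sensor of fast release, had 24 sites. It had a lower mean at 18 and a higher share at 19 in aged cells, beside 58.5% and 75.4% of all listed sites. Its largest difference, in the 5′ UTR, was a mean of 5.14% in aged cells, against 1.03% in young cells. The active zone scaffold genes Rims1 and Rims2 had 2 coding sites each, all 4 with a higher mean and a higher share in aged cells. Of all listed coding sites, 58.0% had a higher mean and 94.7% a higher share. At Rims1 the largest difference was a mean of 1.86% in aged cells, against 0.570% in young cells, and at Rims2 it was 0.187% in aged cells, against 0.0176% in young cells.

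Unc13a, which encodes the vesicle priming factor Munc13-1, had 1 site, in coding sequence. It was methylated in 2 aged cells, 0.236% (0.0286 to 0.851), against 122 young cells, 4.65% (3.88 to 5.53). Both its share and its within-cell level were lower in aged cells, with a mean of 0.00177% in aged cells, against 3.52% in young cells. The authors' deposited table gave it an adjusted p of 3.11e-08.

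**Figure D5:**
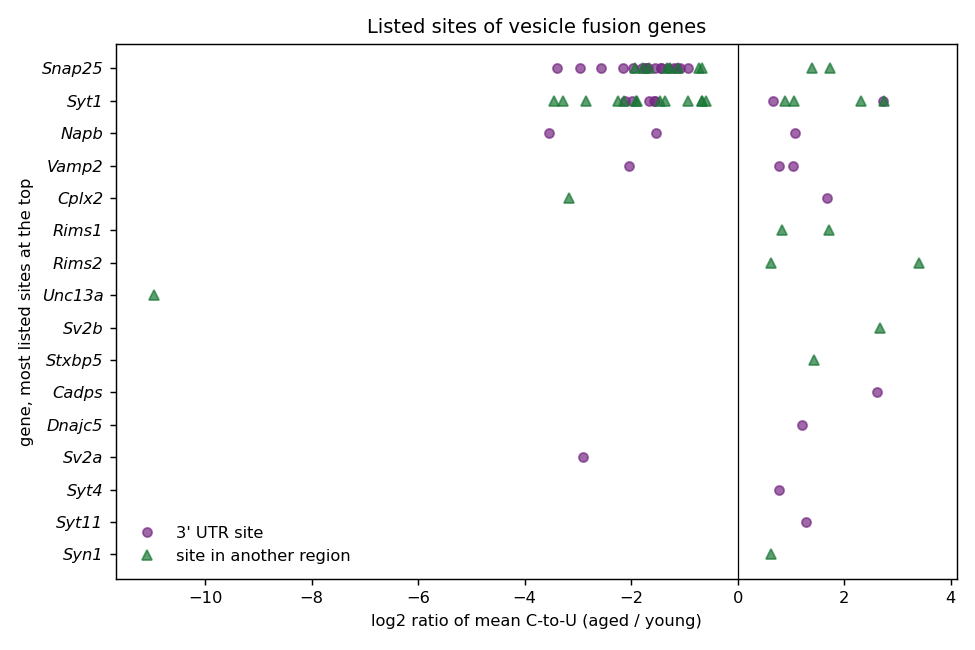
Log2 ratio of mean C-to-U (aged over young) at every listed site of 16 vesicle fusion genes with a site, including Snap25, Napb and Cplx2, with 3′ UTR sites as circles and other sites as triangles. All 17 Snap25 sites in the 3′ UTR lie below 0, and the sites of Rims1 and Rims2 lie above it.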

How the data were processed

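The authors' deposited table was used, with cells of all aged libraries pooled by the authors. The submitters' processing notes name the build mm10 and STAR 2.7.5. Sites were found with Bullseye, per the series' design text. Read filters and depth scaling between the ages were not given in the sources used here. Per the file headers, the deposited percent is that of methylated cells, the deposited count is of methylated cells and not reads, and the deposited fraction is an average C-to-U, printed here as percent. The headers do not say over which cells it was averaged, and it was read as averaged over all cells. The within-cell level was computed as that mean over the share and depends on this reading. Over all listed sites its highest value was 100% in aged cells and 98.9% in young cells. The deposited p-values and adjusted p-values are the authors' own. The authors' log2 ratio is young over aged, and its sign was turned. The 846 aged and 2623 young cells follow from the counts and percentages.

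Positions were read as counted from 0 (a C on the transcript at 1969 of 2036 placed sites, against 207 for the other reading) and are printed counted from 1. Sites were placed on GENCODE M21 transcripts by gene name (781 of 789 genes), preferring coding, principal transcripts. No test was added, since cells are not replicates. The placing and the intervals were tested on simulated data. Python 3.11.15, pandas 2.3.3 and scipy 1.17.1 were used.

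The members, lists and alternatives were chosen with earlier results of these data known. Sites described were all those of Napb and Cplx2, the 6 Snap25 sites with the largest difference, and those with a higher mean. The other Snap25 sites were described after their values were seen. Of the other fusion genes the 8 with the most sites, members included, were named, ties going to the largest difference. An alternative reduced sites within 50 bases of each other to 1. The fusion list and its counts leave out 1 gene, which is not reported here.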

Additional observations from a re-analysis of the deposited data

How the results depend on the processing

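The measure decided the direction in Snap25: 25 of 27 sites were lower in aged cells by mean C-to-U, 16 by share of methylated cells and 9 by within-cell level, and the median log2 ratio of -1.44 by mean turned to 0.94 by within-cell level. In Napb 1 of 3 sites and in Cplx2 0 of 2 were lower by share. With an adjusted p under 0.001, 14 of 15 Snap25 sites and 0 of 1 Cplx2 sites were lower, and with at least 50 methylated cells 0 of 1 in Cplx2. In Snap25 the count fell because fewer sites remained. In Cplx2 the only site with a lower mean failed both settings, and the site with a higher mean stayed. With 1 site per run within 50 bases, 8 of 9 Snap25 sites were lower, and the C followed an A at 8 of 14 member sites. Counting positions from 1 left 0 of 32. In settings added after the values were seen, 1 site per run left 2 of 2 Snap25 3′ UTR sites with a lower share, and sites after an A alone left 4 of 4 others with a higher share. Few aged cells and unknown read depth limit the within-cell levels. No paired analysis was possible because the table holds 1 value per age, and for the same reason no library could be left out.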

Other observations

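Other vesicle genes of the fusion list, named here after their values were seen, had 1 site each. Sv2b, a synaptic vesicle membrane protein gene, was methylated in 30 aged cells, 3.55% (2.41 to 5.02), against 20 young cells, 0.762% (0.466 to 1.18), at a coding site with a mean of 2.75% in aged cells, against 0.431% in young cells. Its paralog Sv2a had a mean of 0.0289% in aged cells, against 0.216% in young cells, at a 3′ UTR site with overlapping share intervals. Dnajc5, which encodes the vesicle chaperone cysteine string protein α that keeps SNAP-25 folded, was methylated in 60 aged cells, 7.09% (5.46 to 9.04), against 56 young cells, 2.13% (1.62 to 2.76), at a 3′ UTR site. Its mean was 0.422% in aged cells, against 0.184% in young cells.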
